A study of Mus musculus with 62 samples.

Results

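The genes described here are 36 genes of protein folding in the endoplasmic reticulum (ER) and of the unfolded protein response, out of 18821 genes in the series. They form a named list, matched by Entrez identifier, and were chosen by measured values: the counts of Dnajb9 and Hspa13, lower in the livers of dosed mice than in vehicle. The liver contrasts against vehicle therefore describe the selection and carry no test here. All 36 were found in each of the 3 count tables, and 35 of them passed the filter on low counts in liver, where Asns did not (0 to 12 counts in the vehicle libraries), and all 36 in each brain region. The samples were bulk RNA-seq libraries from female C57BL/6 mice that had received the MARBLES mixture, a mixture of polychlorinated biphenyls (PCBs), by mouth. Doses were 0 (vehicle), 0.1, 1 or 6 mg/kg, and no other treatment or genotype was labelled. Liver gave 4, 4, 6 and 6 libraries in order of dose, and the prefrontal cortex and the striatum each gave 4, 5, 6 and 6. The animals' age, the length of dosing and the time of day at collection were not given in the sources used here. Each library carried its own animal number, and 20 animal numbers recurred in all 3 tissues.

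The ER is where secreted and membrane proteins are folded, and its chaperones are needed most in cells that secrete heavily, such as hepatocytes. When unfolded proteins accumulate, the sensors IRE1 (gene Ern1), ATF6 and PERK (gene Eif2ak3) start the unfolded protein response. IRE1 splices the mRNA of the transcription factor XBP1, cleaved ATF6 enters the nucleus, and PERK lowers translation while raising ATF4. XBP1 and ATF6 raise chaperones and the machinery of ER-associated degradation, and ATF4 raises Ddit3 (the factor CHOP), Chac1 and Asns.

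A sequence shared by many of these genes is the ER stress response element, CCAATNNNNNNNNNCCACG, at which ATF6 and XBP1 are known to act with the factor NF-Y. RefSeq promoters of the GRCm38.p6 build (250 bases before to 50 after the start) were at hand for 30 of the 36 genes, with none for Hspa13, Hyou1, Manf, Derl1, Atf6 and Ostc. On either strand the element occurred in the promoters of 9 of these genes (Hspa5, Hsp90b1, Dnajc3, Pdia6, Calr, Canx, Creld2, Syvn1 and Derl3), and in 39 of 32851 promoters of all genes (0.119%). A shorter form, ATTGGNCCACG, occurred in Dnajb11 and Herpud1 and in 12 of the 32851 promoters (0.0365%). The windows below show both forms, on either strand, in 6 of these 11 genes, each written in the direction of its gene with the element in capitals. Where the match lies on the opposite strand it reads CGTGG to ATTGG.
Hspa5, chr2:34772000-34772068 (+): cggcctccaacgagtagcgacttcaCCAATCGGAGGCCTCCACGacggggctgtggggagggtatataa
Hsp90b1, chr10:86705613-86705681 (-): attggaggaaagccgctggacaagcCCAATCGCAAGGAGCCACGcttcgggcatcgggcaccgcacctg
Pdia6, chr12:17266466-17266534 (+): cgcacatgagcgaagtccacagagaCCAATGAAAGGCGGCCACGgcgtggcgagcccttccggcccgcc
Calr, chr8:84847050-84847118 (-): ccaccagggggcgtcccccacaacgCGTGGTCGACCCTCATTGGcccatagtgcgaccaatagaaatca
Creld2, chr15:88819495-88819563 (+): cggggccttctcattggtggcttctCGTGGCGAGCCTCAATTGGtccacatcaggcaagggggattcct
Herpud1, chr8:94386352-94386412 (+): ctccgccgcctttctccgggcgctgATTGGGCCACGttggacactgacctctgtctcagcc

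In Hspa5 the element lay 65 to 47 bases before the start, and in Pdia6 98 to 80 bases before it. Hsp90b1 held a second copy, 107 to 89 bases before its start. Dnajb9, the gene of the list with the lowest log2 fold change in liver at 1 and at 6 mg/kg, has a promoter in the table and held none of the 4 motifs searched on both strands. The other 2 motifs were TGACGTGG, a site bound by XBP1, present in 0.676% of all promoters and in none of the 30 genes, and TTGCATCA, bound by ATF4, present in 0.895% of all promoters and in those of Herpud1 and Chac1. A match to these letters describes the window and shows neither binding nor its absence.

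Total counts per library ran from 7381179 to 10203247 in liver, from 8722232 to 12135200 in prefrontal cortex and from 8283032 to 12019651 in striatum. The tissue labels were checked against marker lists. Summed hepatocyte markers reached 87260 to 178933 CPM (counts-per-million) in the liver libraries, and summed neuron markers 6682.7 to 7586.3 CPM in vehicle prefrontal cortex against 6.9 to 44.4 CPM in vehicle liver. Markers of the choroid plexus varied widely among striatal punches (16.7 to 653.4 CPM in vehicle, 9.5 to 1149.6 at 0.1 mg/kg, 9.15 to 4304.4 at 1 mg/kg and 9.78 to 2542.9 at 6 mg/kg). In such bulk samples, fewer cells of a type and less RNA per cell cannot be told apart. CPM values use TMM-scaled library sizes, and every fold change is given on a log2 scale, as fitted by edgeR.

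The livers were compared at each dose with vehicle, the contrast on which the genes were selected. Dnajb9 (chr12:44205897-44210068) encodes ERdj4, a cochaperone of BiP that also restrains IRE1. Its 4 vehicle livers measured 49.7, 60.8, 73.1 and 84.1 CPM and the 4 livers at 0.1 mg/kg 38.9, 59.3, 39.8 and 45.2 CPM. At 1 mg/kg its lowest, median and highest values were 19.9, 24.5 and 39.7 CPM, and at 6 mg/kg 12.8, 16.6 and 27.4 CPM. All 12 livers at the 2 higher doses lay below the lowest vehicle liver, and the group means stepped down from 66.9 ± 14.9 (SD, n = 4) to 45.8 ± 9.43 (n = 4), 27.2 ± 7.95 (n = 6) and 18.3 ± 5.97 CPM (n = 6). The log2 fold changes were -0.55, -1.30 and -1.87 (SE 0.23 at 6 mg/kg).

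Hspa13 (chr16:75755190-75767276), an ER-associated member of the Hsp70 family, measured 21.3, 29.5, 28.3 and 33 CPM in vehicle livers. It measured 23.3, 29.2, 16.4 and 21.4 CPM at 0.1 mg/kg. At 1 mg/kg its lowest, median and highest values were 14, 18.7 and 29.2 CPM, and at 6 mg/kg 6.68, 12.4 and 15.4 CPM. The 6 mg/kg livers did not overlap the vehicle livers, while those at 0.1 and 1 mg/kg did. Its log2 fold changes were -0.31, -0.52 and -1.25 (SE 0.23 at 6 mg/kg).

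**Figure D1:**
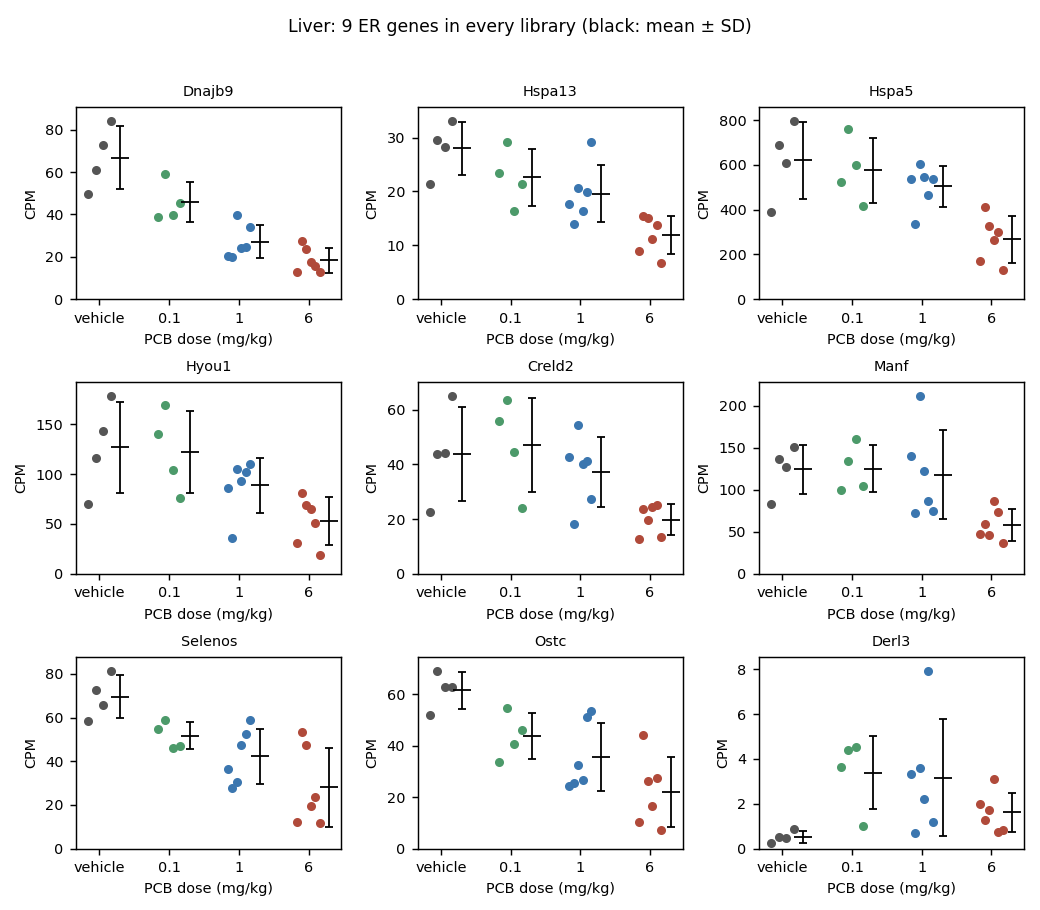
CPM of 9 ER genes in each liver library (dots) by PCB dose in mg/kg, with the group mean and SD in black. Dnajb9 steps down at every dose (means 66.9, 45.8, 27.2 and 18.3 CPM), Hspa5 and Manf are low at 6 mg/kg, and the mean of Derl3 is higher in each dosed group than in vehicle.

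BiP (gene Hspa5, chr2:34772090-34776529), the main Hsp70 chaperone of the ER lumen, had 388, 687, 608 and 795 CPM in vehicle livers. Its 6 mg/kg values were 128, 282 and 412 CPM (lowest, median, highest), so 1 vehicle liver lay within their range, and its log2 fold change was -1.21 (SE 0.27). At 0.1 and 1 mg/kg its medians of 562 and 538 CPM lay inside the vehicle range. Hyou1, the ER chaperone that exchanges nucleotide on BiP, had 69.6, 116, 143 and 178 CPM in vehicle livers and 19.2, 57.9 and 81.4 CPM at 6 mg/kg (log2 fold change -1.27, SE 0.35). Hsp90b1, the Hsp90 chaperone of the ER, differed least among these 4 chaperones, with -0.39.

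Creld2, a secreted stress-induced protein, had 22.5, 43.6, 44 and 65 CPM in vehicle livers and 12.7, 21.6 and 25.3 CPM at 6 mg/kg (-1.14, SE 0.31). Manf, a secreted protein that binds BiP, had 82.7, 137, 127 and 151 CPM and then 37.2, 53.1 and 87.1 CPM (-1.09, SE 0.28). In both genes the groups overlapped through the lowest vehicle liver alone, which was the same animal (number 8) in Hspa5, Hyou1, Creld2 and Manf.

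Ostc, a subunit of the oligosaccharyltransferase that adds sugars to nascent proteins, had 51.8, 69, 62.5 and 62.7 CPM in vehicle livers. At 6 mg/kg its values were 7.31, 21.5 and 43.9 CPM (-1.48, SE 0.35), with no overlap. Selenos, a selenoprotein of ER-associated degradation, had 58.6, 72.4, 65.6 and 81.4 CPM and then 11.8, 21.6 and 53.2 CPM (-1.31, SE 0.34), again with no overlap. Dnajb9, Hspa13, Ostc and Selenos were the 4 of 35 genes with no overlap in the lower direction at 6 mg/kg, where 3.5% of all tested genes had none.

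By role, the 4 Hsp70 and Hsp90 chaperones, the 5 J proteins and cochaperones, the 4 protein disulphide isomerases, the lectin chaperones Calr and Canx, the secreted proteins Creld2 and Manf and the translocation genes Sec61b and Ostc were all lower at 6 mg/kg. The median log2 fold change was -1.23 for the Hsp70 and Hsp90 chaperones, -0.90 for the J proteins and cochaperones and -0.59 for the isomerases. Of the 8 degradation genes 7 were lower, with a median of -0.41. The sensors and their transcription factors were mixed, with Eif2ak3 at -0.84, Atf6 at -0.81, Xbp1 at -0.37 and Ern1 at -0.33 beside Atf4 at 0.02 and Ddit3 at 0.17.

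The highest values at 6 mg/kg belonged to Derl3 and to genes of the PERK and ATF4 branch. Derl3, a membrane protein of ER-associated degradation, had few counts in vehicle livers: 0.238, 0.528, 0.478 and 0.872 CPM from 2 to 9 counts. It had 3.62, 4.4, 4.52 and 1 CPM at 0.1 mg/kg, 0.695, 2.76 and 7.94 CPM (lowest, median, highest) at 1 mg/kg and 0.72, 1.5 and 3.12 CPM at 6 mg/kg, so that only the 0.1 mg/kg group had no overlap with vehicle. Ppp1r15a, the subunit that directs a phosphatase to the translation factor eIF2alpha, had 9.53, 9.92, 11.5 and 12.6 CPM in vehicle livers and 8.15, 12 and 16.2 CPM at 6 mg/kg (log2 fold change 0.20). Ddit3 had 15.2, 14.6, 16 and 14.1 CPM and then 8.92, 15.9 and 28 CPM. Chac1, a glutathione-degrading enzyme, had 1.31, 1.37, 1.43 and 1.16 CPM and then 0.469, 1.34 and 2.06 CPM (0.07), and Atf4 had 111, 99.8, 106 and 129 CPM and then 90.6, 106 and 151 CPM. In all 4 of these genes the 6 mg/kg livers spread to both sides of the vehicle livers.

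**Figure D2:**
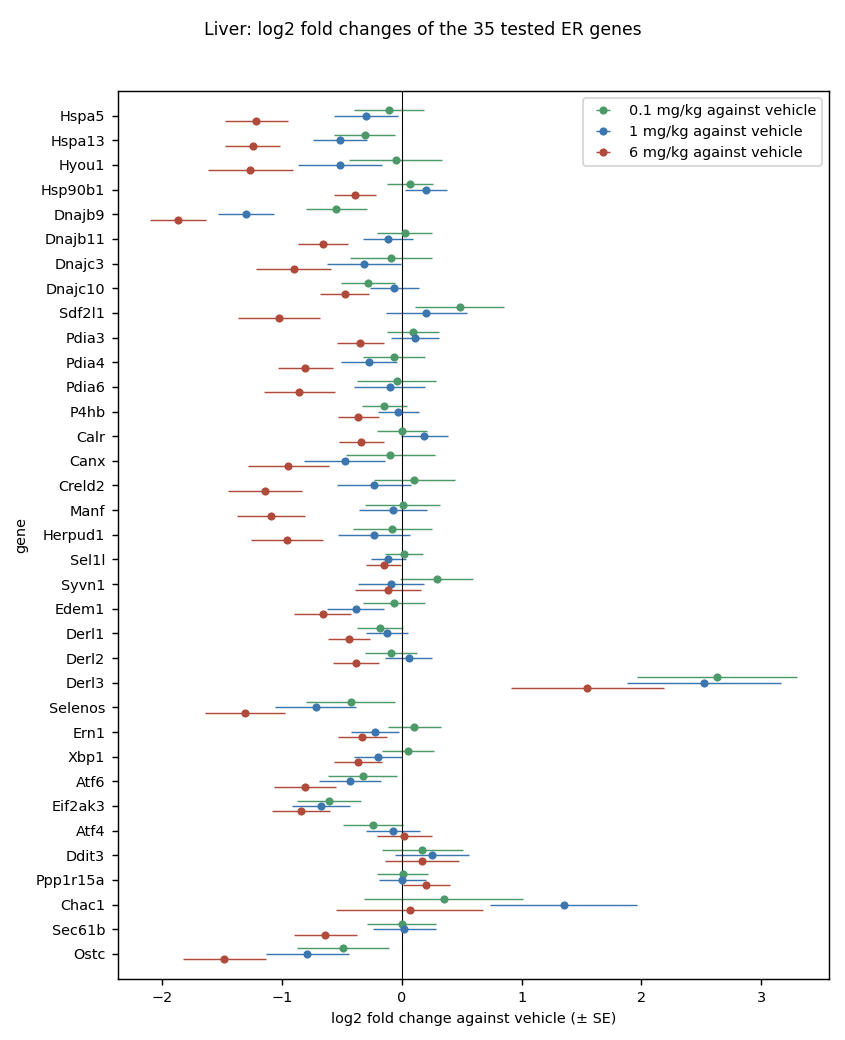
Log2 fold change against vehicle (x axis, dots, bars ± SE) of the 35 genes tested in liver, ordered by role, at 0.1, 1 and 6 mg/kg. At 6 mg/kg 30 of 35 genes lie left of 0, while Derl3 lies right of 0 at all 3 doses and Ddit3, Ppp1r15a, Chac1 and Atf4 lie near or right of it at 6 mg/kg.

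Counted over the list at 6 mg/kg, 30 of 35 genes were lower and the median log2 fold change was -0.66, against 0.02 over all 12968 genes. At an adjusted p under 0.05, 7 genes were lower, beside 0.995% of all tested genes. At an unadjusted p under 0.05, 23 were lower (all genes 11.1%) and 1, Derl3, higher (13.1%). At 1 mg/kg 25 of 35 were lower with a median of -0.12, none passed at an adjusted p (all genes 0%), 5 were lower at an unadjusted p (3.31%) and 2, Derl3 at 2.52 and Chac1 at 1.35, higher (5.14%). At 0.1 mg/kg the median was -0.05, none passed at an adjusted p (all genes 0.0154%), Dnajb9 and Eif2ak3 (-0.61) were lower at an unadjusted p (1.53%) and Derl3 (2.63) was higher (2.58%). The 3 contrasts share the 4 vehicle livers, and nothing is read from these shares, since this is the contrast that chose the genes. The count of 7 was 1 without vehicle animal 3 or 4, 2 without vehicle animal 7 or 6 mg/kg animal 58, 3 without animal 52, 4 without animal 54, 15 without animal 55 and 18 without animal 56. The count over all genes in either direction, 363, moved too: it was 11 and 3 without vehicle animal 3 and 4, 94 and 60 without animals 7 and 58, 89, 153 and 1029 without animals 52, 54 and 55, and 1302 without animal 56.

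Other values differed between vehicle and dosed livers. A clock index, the log2 level of Dbp minus that of Arntl, averaged 3.61 ± 1.68 (SD, range 1.96 to 5.20, n = 4) in vehicle livers, 6.36 ± 0.64 (5.87 to 7.26, n = 4) at 0.1 mg/kg, 6.80 ± 0.89 (5.52 to 7.64, n = 6) at 1 mg/kg and 7.01 ± 0.52 (6.26 to 7.58, n = 6) at 6 mg/kg. Every dosed group lay above the vehicle range, while the 3 dosed groups overlapped each other. With the index as a covariate 0 of 12968 genes passed at 6 mg/kg, none of the 35 among them, and Dnajb9 and Hspa13 stood at -1.41 and -0.80. Blood markers averaged 1087.1, 166.3, 545.7 and 151.5 CPM in order of dose, and 2 of 3 tested were lower at an unadjusted p at 6 mg/kg. They summed to 47.8 to 3066.6 CPM in vehicle livers and 69.3 to 229.5 CPM at 6 mg/kg. Kupffer cell markers summed to 120.5 to 203.1 and 163.4 to 341.8 CPM, with 1 of 6 higher at an adjusted p by edgeR. Markers of liver endothelium and stellate cells summed to 328.2 to 437.5 and 221.3 to 416.4 CPM, with 2 of 8 lower and 1 higher at an unadjusted p. Plasma and B cell markers summed to 3.7 to 6.4 and 4.6 to 12.8 CPM. Genes that respond to feeding and fasting (14 of the 15 listed) summed to 20691.5 to 29818.3 CPM in vehicle livers and to 7991.94 to 23269.4 CPM at 6 mg/kg, with means of 24415.6, 15871.2, 16434.1 and 13948.3 CPM in order of dose. None of these 14 passed at an adjusted p by edgeR at 6 mg/kg, while 4 were lower and 1 higher at an unadjusted p, with a median of -0.41. The part of these in the values above was not tested.

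Related genes outside the list were counted in the same livers at 6 mg/kg. Of 36 other tested genes of the XBP1 and ATF6 arm, 2 were lower at an adjusted p under 0.05 by edgeR, beside 0.995% of all genes. They were Creb3l2, a stress-responsive transcription factor of the ER, at -0.89, and Sec23b, a coat protein of ER exit vesicles, at -0.81. At an unadjusted p 14 of the 36 were lower and 1 higher, beside 11.1% and 13.1% of all genes, and the median was -0.30. Of 25 other genes of the translocon, signal peptidase and oligosaccharyltransferase, 3 were lower at an adjusted p (Spcs2 -0.71, Ssr3 -0.71 and Sec63 -0.65). At an unadjusted p 15 of the 25 were lower and 0 higher, with a median of -0.55. Of 29 other PERK and ATF4 arm genes none passed, 6 were lower and 2 higher at an unadjusted p, and the median was -0.23. Of 15 clock genes, 4 were higher at an adjusted p (Tef 1.42, Per3 2.09, Dbp 1.68 and Ciart 2.88) and Arntl lower (-1.98).

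The contrast of 1 against 0.1 mg/kg used no vehicle liver and was independent of the groups that set the choice only in part, since the selection looked across doses. None of the 35 genes passed at an adjusted p (all genes 0.0154%), and 1 did at an unadjusted p (all genes 6.52%). That gene was Dnajb9, lower by a log2 fold change of -0.75 (edgeR adjusted p = 0.658), with 5 of the 6 livers at 1 mg/kg below 38.9 CPM, the lowest value at 0.1 mg/kg. The list as a whole stood at a median of -0.13 with 24 of 35 genes lower, against 0.02 over all genes.

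Whether the genes vary together apart from dose was examined through the deviation of each liver from the mean of its own dose group, which removes the differences that selected them. Over the 20 livers, 19 of the 34 other genes had a positive r with Dnajb9 at a permutation p under 0.05 (within dose groups, two-sided, 100000 draws), beside 14.5% of the 12967 other liver genes, and 1 had a negative one, beside 13.8%. With the p adjusted over all of these genes 5 passed, beside 1.83%. The median r was 0.518 over the 34 genes, 28 of them positive, against 0.0102 over the 12967 genes, of which 50.7% were positive. The values come from the same libraries and share their scaling.

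The 5 genes past the adjusted threshold were Hspa13, Atf6, Hspa5, Hyou1 and Pdia4. Hspa13 had the highest r with Dnajb9, 0.803 (Spearman's rho 0.811, permutation p = 0.00022, adjusted over all genes 0.0375), and 0.838 without the 2 livers farthest from the median of Dnajb9, those of animals 56 and 46. Atf6 followed with r = 0.782 (rho 0.731), Hspa5 with 0.771 (rho 0.773), Hyou1 with 0.766 (rho 0.827) and the isomerase Pdia4 with 0.760 (rho 0.744), each at a permutation-based p of 0.0437 adjusted over all genes. Without the same 2 livers these r values were 0.815, 0.730, 0.760 and 0.767. Ostc had r = 0.714 (rho 0.764, permutation-based p adjusted over all genes 0.0660) and did not pass. Atf6 measured 39.7, 48.5, 52.2 and 63.8 CPM in vehicle livers and 15.8, 24.4 and 46.3 CPM (lowest, median, highest) at 6 mg/kg, and Pdia4 120, 171, 147 and 191 CPM and then 50.7, 84.8 and 136 CPM. Both overlapped the vehicle livers through animals 56 and 55.

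Of the 34 genes 6 had a negative r: Ddit3, Ppp1r15a and Atf4 of the PERK and ATF4 branch, Syvn1 and Derl2 of degradation, and Sec61b of translocation. Ddit3 was the 1 gene with a negative r at a permutation p under 0.05, with r = -0.532 (permutation p = 0.0430, adjusted over all genes 0.164), rho -0.586 and r = -0.792 without the same 2 livers. Ppp1r15a had r = -0.471 (rho -0.304, and -0.272 without the 2 livers) and Syvn1, the ubiquitin ligase of ER-associated degradation, -0.308 (rho -0.364, and -0.352), both at a permutation p above 0.05. By r with Dnajb9 among 12967 liver genes, Hspa13 ranked 32, Hspa5 74 and Hyou1 86. The highest were Rnf141 (0.861), Klf3 (0.856) and Mapre1 (0.846). With 1 liver left out, 14 to 21 of the 34 genes had a positive r at a permutation p under 0.05, beside 10% to 21.3% of all genes. The count adjusted over all genes was less steady: it was 0 without any 1 of 13 livers (vehicle animal 3, 4 or 8, animal 25 or 28 at 0.1 mg/kg, 41 or 48 at 1 mg/kg, and each of the 6 animals at 6 mg/kg), 1 without vehicle animal 7 or animal 45 or 50 at 1 mg/kg, 3 without animal 29 at 0.1 mg/kg, 8 without animal 42 at 1 mg/kg, and 17 without animal 46 at 1 mg/kg. The count over all genes moved with it, from 237 to 664 without animal 42 and to 3702 without animal 46, and the 17 include Ddit3 with its negative r. With the clock index removed as well it was 0, while 20 genes had a positive r at a permutation p under 0.05, beside 11.3% of all genes.

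**Figure D3:**
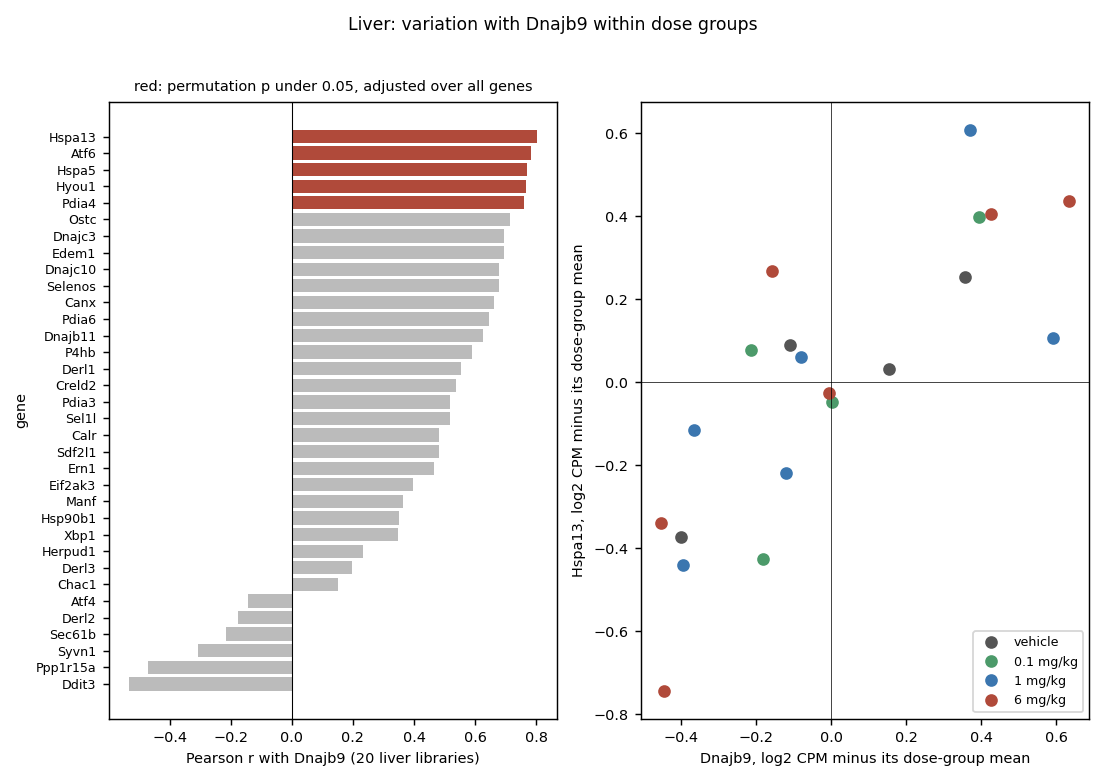
Left, Pearson r of each of 34 genes with Dnajb9 over 20 liver libraries after subtraction of dose-group means (bars, red where the permutation p adjusted over all genes is under 0.05). Right, the same deviations (log2 CPM) of Hspa13 against Dnajb9, 1 dot per liver, coloured by dose, with r = 0.803.

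In the brain regions the median r with Dnajb9 was 0.013 in prefrontal cortex and 0.091 in striatum (21 libraries each). In prefrontal cortex 2 of 35 genes had a positive r at a permutation p under 0.05, beside 4.43% of all genes, and none a negative one (4.62%). None passed with the p adjusted over all genes (0%). The highest was Dnajc10, the ER disulphide reductase ERdj5, with r = 0.748 (rho 0.674, and r = 0.533 without the 2 libraries farthest from the median of Dnajb9). In striatum 8 of 35 had a positive r (13.7%) and 3 a negative one (14.2%), and 3 passed after adjustment over all genes (9.27%), a share no higher than that of all genes. Those were Dnajc10 (r = 0.837, rho 0.832), the lectin chaperone Canx (0.786, rho 0.730) and Hspa13 (0.748, rho 0.730). Whether these correlations differ from those in liver was not tested.

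The brain libraries were not used in the rule that chose the genes, and there the comparison of each dose with vehicle is a test. That test is limited, since the list was drawn up with earlier results of these data known. Most brain libraries also share an animal number with a liver. No gene of the list passed at an adjusted p under 0.05 at any dose in either region, and 0% of all genes passed in each of these 6 contrasts. Over the ranked doses none passed in prefrontal cortex (all genes 0.0202%) or striatum (0%). Dnajb9 had 40.3, 36.5, 37.2 and 39.9 CPM in vehicle prefrontal cortex and 39.1, 40 and 45.8 CPM (lowest, median, highest) at 6 mg/kg, which differ by 0.09 on the log2 scale (SE 0.08, edgeR adjusted p = 0.771). In striatum Dnajb9 had 34.9, 35, 48.7 and 46.8 CPM and then 29.6, 36.2 and 41.5 CPM (-0.20, SE 0.12, edgeR adjusted p = 0.395).

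Hspa13 had 45.3, 45.7, 53.7 and 48.5 CPM in vehicle prefrontal cortex and 34.9, 51.2 and 54.4 CPM at 6 mg/kg (log2 fold change 0.01, SE 0.11). In striatum it had 54.3, 46.8, 70.5 and 57.5 CPM and then 39.5, 50 and 51.5 CPM, with 1 vehicle library inside the dosed range (-0.28, SE 0.10, edgeR adjusted p = 0.226). At 1 mg/kg Dnajb9 lay at 35.8 to 42.6 CPM in prefrontal cortex and 36.3 to 52.2 CPM in striatum, and Hspa13 at 55.2 to 62.7 CPM in striatum, all overlapping vehicle. Hspa13 in prefrontal cortex at 1 mg/kg lay at 39.8 to 45 CPM, below all 4 vehicle libraries (log2 fold change -0.18, SE 0.11, edgeR adjusted p = 0.600). It was the 1 of 36 genes with no overlap in the lower direction there, beside 1.27% of all genes.

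At 6 mg/kg, 3 of 36 genes passed at an unadjusted p in prefrontal cortex (8.33%, beside 9.27% of all genes), all higher. Herpud1, a membrane protein of ER-associated degradation, had 60.1, 62.2, 57.2 and 54.2 CPM in vehicle and 61.3, 66.4 and 83 CPM at 6 mg/kg (0.24, edgeR adjusted p = 0.475). Atf4 had 115, 119, 114 and 120 CPM and then 113, 133 and 167 CPM (0.24). The isomerase Pdia3 had 190, 173, 178 and 164 CPM and then 174, 204 and 217 CPM (0.18). All 3 overlapped vehicle, and a share near that of all genes is no result about the list.

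In striatum at 6 mg/kg, 3 of 36 genes passed at an unadjusted p (all genes 15.7%): Hspa13, given above, Syvn1 and Ppp1r15a. Syvn1 had 65.9, 66.4, 61.8 and 55.8 CPM in vehicle and 71.1, 76.2 and 80.2 CPM at 6 mg/kg with no overlap (0.28, SE 0.08, edgeR adjusted p = 0.208). The share of all genes with no overlap in that contrast is not given, so nothing is read from it. Ppp1r15a had 17.8, 14.1, 14.1 and 14.9 CPM and then 16.4, 17.7 and 22.2 CPM (0.25, SE 0.11). Libraries at 6 mg/kg were less deep there than vehicle (8553800 to 9197051 counts against 10147296 to 10459212). Their summed neuron markers were lower (3594.5 to 4248.8 CPM against 4367.9 to 5491.8 in vehicle, no overlap) and their oligodendrocyte markers higher (5330.5 to 7410.4 CPM against 3502.5 to 5332.7). All 3 tested blood markers were lower at an unadjusted p (median log2 fold change -1.36), as were all 3 in prefrontal cortex (-2.13). The part of depth and of these markers in the values was not tested. At 1 mg/kg 2 genes passed at an unadjusted p in each region, beside 8.29% of all genes in prefrontal cortex (Eif2ak3 -0.22 and Sec61b 0.57) and 7.36% in striatum (Manf -0.30 and Xbp1 -0.18). Over ranked doses 1 passed in prefrontal cortex (Hyou1, all genes 9.79%) and 3 in striatum (all genes 13.1%).

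The 0.1 mg/kg group was the one in which brain values of the list stood above vehicle. In prefrontal cortex 12 of 36 genes (33.3%) were higher at an unadjusted p under 0.05, beside 3.4% of all tested genes, and in striatum 12 of 36, beside 1.23%. None passed the adjusted threshold in edgeR's fit. The median log2 fold change over the list was 0.18 in prefrontal cortex (28 of 36 genes higher) and 0.17 in striatum (32 of 36), against medians within 0.01 of 0 over all genes. The 4 vehicle libraries enter every contrast of a region, and this dose was singled out after the values of all doses had been seen.

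Hspa5 had 330, 250, 248 and 222 CPM in vehicle prefrontal cortex and 414, 447, 414, 331 and 308 CPM at 0.1 mg/kg. Of the 5 dosed libraries, 4 lay above the highest vehicle library. The log2 fold change was 0.54 (SE 0.12, edgeR adjusted p = 0.584), the second smallest p of 14838 genes. In striatum it had 336, 312, 301 and 271 CPM and then 478, 494, 468, 369 and 368 CPM with no overlap (0.51, SE 0.11, edgeR adjusted p = 1), the smallest p of 15118 genes. At 1 mg/kg its values were 214 to 308 CPM in prefrontal cortex and 251 to 342 CPM in striatum, and at 6 mg/kg 242 to 293 and 274 to 337 CPM, all within or near the vehicle ranges. In both regions animals 29, 28 and 25 were the highest of the 0.1 mg/kg group and animals 24 and 23 the lowest.

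Manf had 37.7, 42.3, 34.1 and 34.1 CPM in vehicle prefrontal cortex and 47.1, 59.3, 54.7, 51.4 and 47.2 CPM at 0.1 mg/kg, with no overlap. Its log2 fold change was 0.49 (SE 0.10, edgeR adjusted p = 0.584), the smallest p of all genes in that region, and in striatum 0.19 (SE 0.13). Pdia4 had 38, 33.8, 24.5 and 30.6 CPM in vehicle prefrontal cortex and 55.3, 49.3, 50.8, 36.4 and 35.6 CPM at 0.1 mg/kg, again lowest in animals 24 and 23. Its log2 fold change was 0.52 in prefrontal cortex and 0.39 in striatum.

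Hsp90b1 had 287, 271, 305 and 299 CPM in vehicle striatum and 414, 400, 381, 338 and 329 CPM at 0.1 mg/kg, with no overlap in either region (0.36 in striatum, 0.26 in prefrontal cortex). Creld2 had 17.5, 18.4, 17.7 and 14.5 CPM in vehicle striatum and 28.6, 29.8, 24.1, 19.9 and 20.2 CPM at 0.1 mg/kg (0.53, SE 0.18), with no overlap. Calr, a lectin chaperone, had 345, 328, 313 and 314 CPM and then 475, 385, 429, 362 and 367 CPM in striatum (0.31). The groups did not overlap for 3 of 36 genes in prefrontal cortex (Atf4, Hsp90b1 and Manf, beside 0.923% of all genes) and for 6 in striatum (Calr, Hspa5, P4hb, Hsp90b1, Ostc and Creld2, beside 0.807%).

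**Figure D4:**
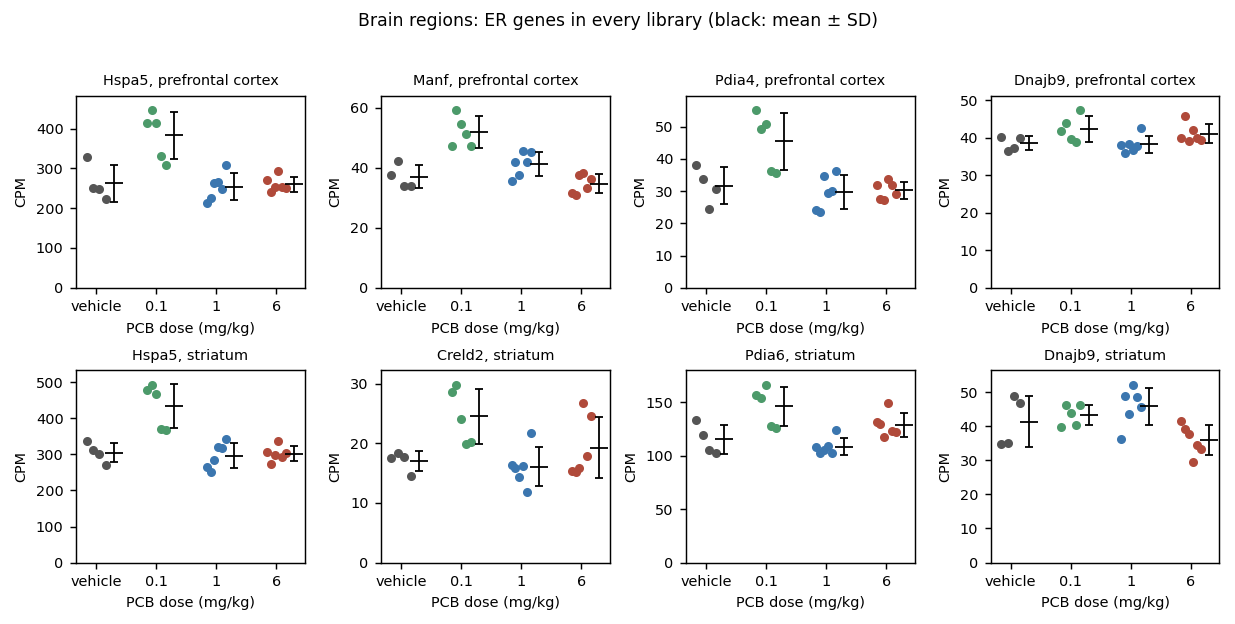
CPM of 4 ER genes in prefrontal cortex (top row) and 4 in striatum (bottom row) in each library (dots) by PCB dose in mg/kg, with the group mean and SD in black. Hspa5 stands highest at 0.1 mg/kg in both regions (308 to 447 and 368 to 494 CPM), and Dnajb9 overlaps vehicle at every dose.

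The lists of 12 genes shared 10 members, 83.3% of each: Hspa5, Hsp90b1, Dnajb11, Sdf2l1, Pdia3, Pdia4, Pdia6, Calr, Herpud1 and Xbp1. Among the 14617 genes tested in both regions, 34 (0.233%) were higher at an unadjusted p in both. The regions were taken from the same mice, so these are not independent groups of animals. Of the 10, 8 are chaperones, cochaperones or isomerases of the ER. Ern1, Atf6 and Eif2ak3, the sensors, had log2 fold changes of -0.07, -0.04 and -0.08 in prefrontal cortex and -0.02, 0.03 and 0.08 in striatum. Ddit3, Chac1 and Asns had 0.18, 0.25 and 0.08 in prefrontal cortex and 0.01, -0.32 and 0.03 in striatum. Dnajb9 and Hspa13, whose values selected the list in liver, were not among the 12 in either region.

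Dnajb9 measured 41.9, 44, 39.6, 38.9 and 47.4 CPM at 0.1 mg/kg in prefrontal cortex and 39.8, 46.1, 43.9, 40.3 and 46.2 CPM in striatum, overlapping vehicle in both (log2 fold changes 0.14 and 0.07). Hspa13 measured 52.5, 46.6, 44, 39.3 and 57.8 CPM and 61.5, 59.1, 65.1, 55.5 and 64.9 CPM, likewise overlapping (-0.01 and 0.09).

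**Figure D5:**
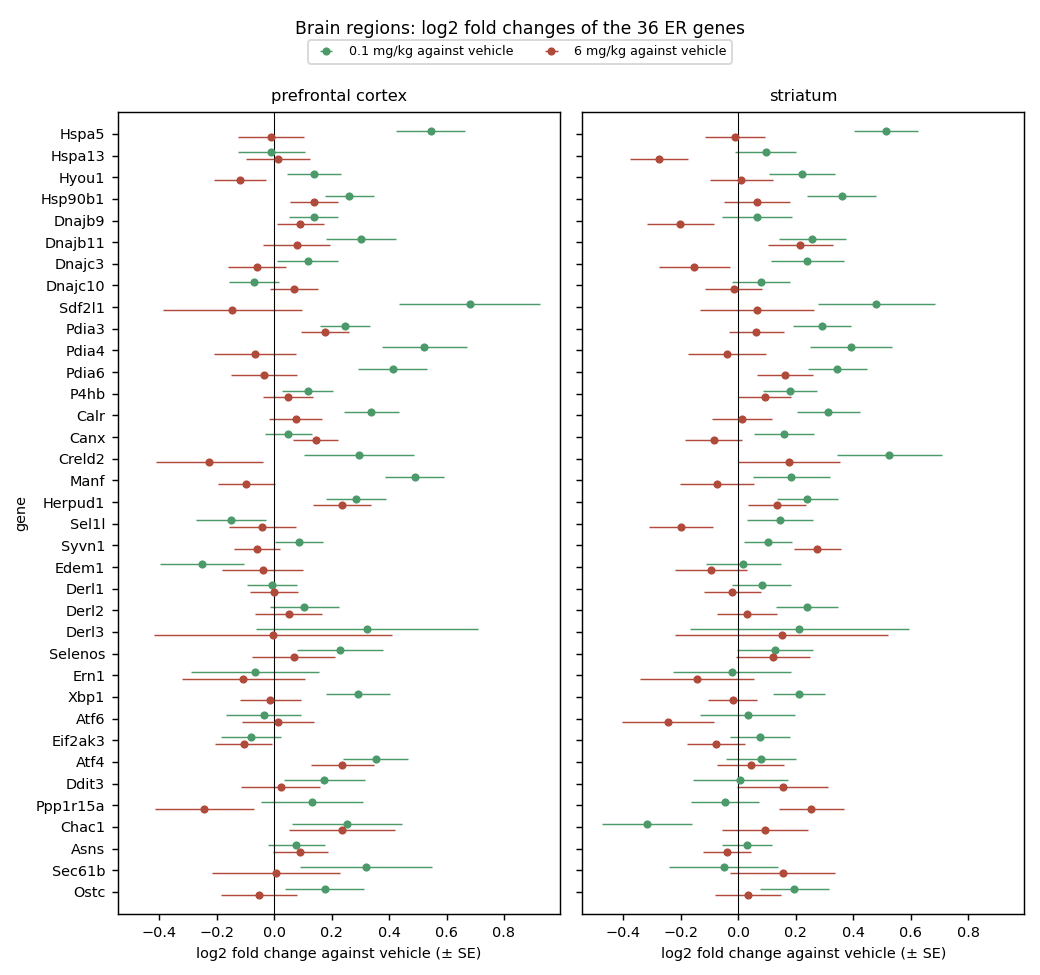
Log2 fold change against vehicle (x axis, dots, bars ± SE) of the 36 genes, ordered by role, at 0.1 and 6 mg/kg in prefrontal cortex (left) and striatum (right). At 0.1 mg/kg 28 and 32 of 36 genes lie right of 0, with Hspa5 at 0.54 and 0.51, while at 6 mg/kg Hspa5 lies at -0.01 in both.

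Leaving out 1 library at a time, the count of genes higher or lower at an unadjusted p at 0.1 mg/kg stayed between 9 and 14 in prefrontal cortex and between 8 and 14 in striatum. The DESeq2 Wald test called 1 gene in each region, Manf in prefrontal cortex (adjusted p = 0.0379) and Hspa5 in striatum (adjusted p = 0.0457), and each was the 1 gene it called among all genes of the region. The depth of the libraries at 0.1 mg/kg overlapped that of vehicle in both regions, as did the clock index (1.51 ± 0.46 against 1.36 ± 0.53 in prefrontal cortex, 1.97 ± 0.32 against 2.28 ± 0.41 in striatum, SD). In prefrontal cortex 1 of 4 oligodendrocyte markers was higher at an unadjusted p (median 0.20). In striatum 2 of 5 tested endothelium and stellate cell markers were lower (median -0.23). No other tested cell marker passed at an unadjusted p, and the part of these in the values was not tested. Across all genes the log2 fold change at 0.1 mg/kg varied with transcript length (Spearman's rho -0.467 in prefrontal cortex and -0.126 in striatum) and with GC content (0.235 and -0.239). The listed genes had a median transcript length of 2641.5 bases against 3479 over all genes tested in prefrontal cortex. With an offset for both properties the counts at an unadjusted p, in either direction, were 14 and 17 and the medians 0.13 and 0.16. The share of all genes at an unadjusted p is not given for this offset or for the fits without 1 library. These counts are therefore not set against all genes, and nothing is read from them about the list.

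Other genes of the same pathways were counted at 0.1 mg/kg as well. Of 36 other tested XBP1 and ATF6 arm genes in prefrontal cortex, 1 was higher at an unadjusted p with a median of 0.03, and of 35 in striatum none was, with a median of 0.06. Among 25 translocon, signal peptidase and oligosaccharyltransferase genes, 1 was higher in each region (medians 0.10 and 0.09). These lists were not compared with the 36 genes by a test.

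The brain groups at 6 and 0.1 mg/kg were set against each other in a contrast added after the low-dose values had been seen, and it uses the same 0.1 mg/kg libraries. In prefrontal cortex 2 of 36 genes fell past the adjusted threshold (all genes 0.108%), and 10 at an unadjusted p (6.17%), while none was higher (3.96%). Manf was lower by -0.59 (SE 0.09, edgeR adjusted p = 0.00649), with all 6 libraries at 6 mg/kg (30.8 to 38.2 CPM) below all 5 at 0.1 mg/kg. Hspa5 was lower by -0.56 (SE 0.11, edgeR adjusted p = 0.0342), likewise with no overlap. How many of all genes had no overlap between these groups is not given for either region, so nothing is read from it. Manf passed without any 1 of the 11 libraries, but Hspa5 did not pass without 6 mg/kg animal 58, 56, 53 or 52 or 0.1 mg/kg animal 29, 28 or 25, which left 1 gene, and 5 genes passed without 0.1 mg/kg animal 23. The count over all genes in either direction, 16, moved too. It was 3, 4, 5 and 4 without animals 58, 56, 53 and 52. Without animals 29, 28 and 25 it was 3, 3 and 10, and without animal 23 it was 24.

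In striatum 2 of 36 genes fell past the adjusted threshold (all genes 1.25%), and 16 at an unadjusted p (10.7%). At an unadjusted p 3 were higher (all genes 11.6%): Chac1 (0.41), Ppp1r15a (0.30) and Syvn1 (0.17). Hspa5 was lower by -0.53 (SE 0.10, edgeR adjusted p = 0.0270) and Hspa13 by -0.37 (SE 0.10, edgeR adjusted p = 0.0379), both with no overlap between groups. None passed without 0.1 mg/kg animal 29 or 25, and 1 passed without animal 24 or 23 of that group or 6 mg/kg animal 56, 55, 54 or 52. The count over all genes in either direction, 440, moved too. It was 0, 12, 42 and 9 without animals 29, 25, 24 and 23, and 157, 68, 47 and 383 without animals 56, 55, 54 and 52. Neuron markers summed to 3594.5 to 4248.8 CPM at 6 mg/kg and 3830.1 to 4883.4 at 0.1 mg/kg, and oligodendrocyte markers to 5330.5 to 7410.4 and 3684.0 to 5627.7 CPM, both overlapping, and their part was not tested. When GC content and length were modelled as an offset, Hspa5 stayed past the threshold (-0.44, edgeR adjusted p = 0.0402), while Hspa13 did not (-0.20, SE 0.08, edgeR adjusted p = 0.255). The clock index was 2.84 ± 0.45 at 6 mg/kg and 1.97 ± 0.32 at 0.1 mg/kg (SD). With it as a covariate 0 of 15118 genes passed in striatum, where Hspa5 stood at -0.53 (SE 0.14, edgeR adjusted p = 0.840) and Hspa13 at -0.18 (SE 0.12, edgeR adjusted p = 0.988). In prefrontal cortex 5 of the 36 genes and 94 of all 14838 then passed.

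The genes with an ER stress response element of either form were set beside those without one. In liver at 6 mg/kg, 10 of the 11 genes with an element were lower, with a median log2 fold change of -0.86, and 14 of the 18 tested genes with a promoter but no element, with a median of -0.37. At 0.1 mg/kg all 11 genes with an element were higher in prefrontal cortex (median 0.29) and in striatum (median 0.26). Of the 19 without, 5 were lower in prefrontal cortex and 4 in striatum, and their medians were 0.14 and 0.08. Of the 6 with no promoter in the table, 3 and 0 were lower. Most of the list shared this direction, with 28 and 32 of all 36 genes higher. Derl3, which has an element, was the exception in liver, and the genes with no promoter in the table had a liver median of -1.17. These medians are descriptions of a chosen list with no test.

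Levels of these genes were also compared between tissues, apart from dose. In the vehicle mice 27 of 36 genes were higher in liver than in prefrontal cortex at an edgeR adjusted p under 0.05, beside 39.4% of all genes, and 3 were lower, beside 45.5%. Against striatum 29 were higher (all genes 39.4%) and 3 lower (45.5%). The median log2 difference between liver and prefrontal cortex was 2.06 over the list and -0.17 over all genes. CPM values in this comparison are scaled over the 3 tissues together and so differ from those within a tissue: Hspa5 reads 674 to 1329.7 CPM here in the same vehicle livers that stood at 388 to 795 CPM on the liver scale.

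P4hb, the isomerase PDI, had the largest difference among the genes higher in liver, 4.63 (SE 0.15), with 2056.68 to 2526.51 CPM in vehicle livers and 82.8 to 97.4 CPM in prefrontal cortex. Edem1, a lectin of ER-associated degradation, differed by 4.12 (SE 0.13), Sec61b, a subunit of the translocation channel, by 4.11 (SE 0.17) and Derl2, a degradation protein of the same family as Derl3, by 3.93 (SE 0.14). None of these 4 overlapped between liver and brain: Edem1 lay at 263.6 to 353.1 CPM in liver and 17.4 to 18.9 CPM in prefrontal cortex, Sec61b at 155.8 to 249.1 and 9.51 to 13.0 CPM, and Derl2 at 257.6 to 351.8 and 18.1 to 21.7 CPM.

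Asns, the asparagine synthetase that ATF4 raises, had the opposite pattern, with 0 to 1.96 CPM in vehicle livers and 93.2 to 105 CPM in prefrontal cortex (log2 difference -6.29, SE 0.26). Chac1 lay at 1.94 to 2.58 CPM in liver and 6.08 to 9.22 CPM in prefrontal cortex (-1.74, SE 0.24), and Dnajc10 at 32.9 to 45.9 and 75.8 to 84.1 CPM (-0.98, SE 0.13). Derl3 did not pass (0.413 to 1.46 CPM in liver, 0.306 to 2.31 CPM in prefrontal cortex, -0.56, edgeR adjusted p = 0.325). Dnajb9 was higher in liver than in prefrontal cortex by 1.77 (SE 0.15) and Hspa13 by 0.19 (SE 0.15, edgeR adjusted p = 0.222), which did not pass. Between striatum and prefrontal cortex 1 gene passed (all genes 13.5%): Atf6, lower in striatum by -0.43 (SE 0.12, edgeR adjusted p = 0.0243), lost without animal 7, 4 or 3, while 2 passed without animal 8.

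Per kilobase of transcript, and on the same joint scale, P4hb was the most abundant of the 36 in vehicle liver (790 ± 80 CPM per kb, SD, n = 4), followed by Calr (529 ± 80), Herpud1 (363 ± 79) and Hsp90b1 (362 ± 64), the last 2 within each other's spread. Hspa5 stood at 295 ± 82, Dnajb9 at 47.3 ± 9.3 and Hspa13 at 11.6 ± 2.0 CPM per kb. In prefrontal cortex the order was led by Calr (126 ± 11), Hsp90b1 (74.6 ± 3.3) and Hspa5 (63.5 ± 11), the latter pair overlapping in spread, and in striatum by the same 3 (125 ± 5.9, 75.5 ± 3.6 and 69.6 ± 6.4). Dnajb9 was at 13.9 and 14.1 CPM per kb in prefrontal cortex and striatum, and Hspa13 at 10.1 and 11.3.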

How the data were processed

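Gene counts of 62 RNA-seq libraries were analysed as deposited, in 1 table per tissue, with Entrez identifiers as row names. Per the submitters' processing notes, FastQC and HISAT2 were used with mm10; the counting program and the choice between poly(A) capture and rRNA removal were not given in the sources used here. The deposited counts are whole numbers with no normalization. Symbols, gene positions and promoters came from RefSeq (GRCm38.p6). The members and lists were chosen with earlier results of these data known.

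Counts were tested in R 4.3.3 with edgeR 4.0.16 (filterByExpr, TMM scaling, robust quasi-likelihood fit over all 4 dose groups of a tissue, Benjamini-Hochberg adjustment over all genes tested). Each SE was obtained from the log2 fold change and the square root of its F statistic; log2 CPM was computed with 2 as prior count. Vehicle libraries of the 3 tissues entered 1 further fit. p-values measure the spread between these libraries. Calls use an adjusted p under 0.05 unless said otherwise. The fits were tested on simulated data. Alternatives were DESeq2 1.42.0, sva 3.50.0 with 1 surrogate variable, other scaling and filters, the clock index, leaving out each library and, chosen after seeing the data, an offset for GC content and length, 0.1 mg/kg as the reference group and correlations with Dnajb9 adjusted over all genes.

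Values are given for Dnajb9 and Hspa13, the 5 other genes with the highest and the lowest log2 fold change in liver at 6 mg/kg, genes at an unadjusted p under 0.05 at 6 mg/kg in brain, the 4 largest tissue differences in each direction and the 6 highest r with Dnajb9. The genes given in full for the brain at 0.1 mg/kg, and Manf in liver, were chosen after their values were seen.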

Additional observations from a re-analysis of the deposited data

Results flagged for a closer look

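Among 116 sets of libraries checked for the named genes, 5 held a library far from the rest of its group, where chance gives about 1 in 20 sets, or 5.8. Hyou1 was low in the liver of animal 48 at 1 mg/kg (35.5 CPM, the next 86.3). Dnajb9 was high in the prefrontal cortex of animal 41 at 1 mg/kg (42.6 CPM, the next 38.3). Hspa13 was low in the prefrontal cortex of animal 55 at 6 mg/kg (34.9 CPM, the next 47.5). Ppp1r15a was high in the striatum of animal 54 at 6 mg/kg (22.2 CPM, the next 18.3), and Pdia6 in the striatum of animal 41 at 1 mg/kg (123.9 CPM, the next 108.7).

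For 5 genes every 6 mg/kg library lay below the mean of vehicle in liver and above it in a brain region, of 35 tested and beside 2.21% of the 11830 genes tested in all 3 tissues; lower values in liver chose the list, and the difference between tissues was not tested. Dnajb9 had log2 fold changes of -1.87 in liver and 0.09 in prefrontal cortex (difference -1.96), Herpud1 -0.96 and 0.24 (-1.20) and Hsp90b1 -0.39 and 0.14 (-0.53). In striatum Pdia6 had 0.16 beside -0.86 in liver (-1.02) and Dnajb11 0.22 beside -0.66 (-0.87).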

How the results depend on the processing

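The count of listed genes called in liver at 6 mg/kg (7) was 0 with the clock index as a covariate, 16 with DESeq2, 1 with only the 2 groups compared in the fit, and 1 to 18 when 1 library was left out, while the 363 called over all genes became 0, 1138, 13 and 3 to 1302; the cause was not tested, and fewer libraries enter the fit of 2 groups. Across the settings run 30 to 32 genes were lower. In liver at 1 mg/kg (0) the count was 1 with a surrogate variable, 2 with DESeq2 and 0 to 1 without 1 library, beside 4, 21 and 0 to 3 over all genes. DESeq2 called 1 gene at 0.1 mg/kg in each brain region (0 in edgeR), which was the 1 called over all genes, and 5 between striatum and prefrontal cortex in vehicle mice (1 in edgeR, 0 to 2 without 1 animal), where it called 2613 of all genes (1916 in edgeR, 754 to 2068 without 1 animal). With 0.1 mg/kg as the reference, chosen after seeing the data, 2 genes were called at 6 mg/kg in each region (0 against vehicle). A slope over mg/kg called 4 genes in striatum (0 over ranked doses), Hspa13 and Sel1l lower and Ppp1r15a and Syvn1 higher, beside 1862 of all genes (0 over ranked doses). The genes varying with Dnajb9 in liver numbered 16 when p was adjusted over the other 34 genes (8 to 17 without 1 library) and 5 when adjusted over all genes tested, an alternative chosen after seeing the data (0 to 17 without 1 library, 3 by Spearman's rho, 0 with the clock index removed as well). Without 1 animal, 30 to 31 genes differed between liver and prefrontal cortex (30) and 31 to 32 between liver and striatum (32). The log2 fold change in liver at 6 mg/kg was -1.41 for Dnajb9 and -0.80 for Hspa13 with the clock index, and -2.02 to -1.74 and -1.35 to -1.12 without 1 library. In the contrast of 6 against 0.1 mg/kg the count of 2 was 4, 4, 5 and 5 in prefrontal cortex and 9, 2, 6 and 0 in striatum with a surrogate variable, the GC and length offset, DESeq2 and the clock index. Over all genes the 16 called in prefrontal cortex became 158, 31, 116 and 94, and the 440 in striatum 1226, 56, 1098 and 0. The count stayed 0 in every setting for liver at 0.1 mg/kg and 1 against 0.1 mg/kg.

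With the animal number as a replicate block, 30, 1 and 32 genes differed between tissues of vehicle mice, as without it; deviations of the same animal's libraries correlated by 0.0063 (liver and prefrontal cortex), 0.0052 (liver and striatum) and 0.113 (prefrontal cortex and striatum) on average, so pairing was not used.

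Low counts limit Derl3, Chac1 and Asns in liver.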
